A study of Mus musculus with 12 samples.

Results

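The genes described here encode nuclear subunits of respiratory complex I, a group of its assembly factors and the pair Ndufa4 and Ndufa4l2. They were read in hearts of male C57Bl/6J mice aged 12 weeks. The members are the genes whose symbol begins with Nduf and that stand in each of the 4 deposited tables. There are 46 of them among 16514 genes in all. Names marked -ps were left out, so that Ndufb1-ps, a name in the annotation, is not a member. Every heart had pressure-loading or sham surgery on a diet that held 1% propionate, a short-chain fatty acid. In the BCAA-free TAC group the diet lacked the branched-chain amino acids (BCAA: leucine, isoleucine and valine) and the mice had transverse aortic constriction (TAC), surgery that puts the left ventricle under pressure by tying down the aortic arch. The BCAA-free sham group ate the same diet and had sham surgery. The control TAC and control sham groups had the same surgeries on a diet that contained these amino acids. Feeding started 4 days before surgery and hearts were taken 1 week after it, with 3 RNA-seq libraries per group. Separate mice are not named as the source of the 3 libraries, so each p-value below is set by the spread between libraries, which may be technical.

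Complex I is the entry point of the mitochondrial respiratory chain: it oxidises NADH, passes the electrons along iron-sulfur clusters to ubiquinone and pumps protons across the inner membrane. Its peripheral arm, in the matrix, holds the NADH and ubiquinone sites, and its membrane arm holds the proton pumps, whose central proteins are encoded by mitochondrial DNA. Around this catalytic core sit accessory subunits that hold the complex together, and assembly factors build it without staying in it. Heart muscle depends on this chain for most of its ATP. By role, the 46 genes were 7 core subunits of the peripheral arm, 9 accessory subunits of the peripheral arm, 9 of the proximal membrane arm, 10 of the distal membrane arm, the acyl carrier subunit Ndufab1, the pair Ndufa4 and Ndufa4l2, and the 8 assembly factors Ndufaf1 to Ndufaf8. Ndufa4 keeps its complex I name, but its human counterpart is counted as a subunit of complex IV.

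Promoter sequence is shown for 4 members, which lets those with and without a match to a known motif be read side by side. Whether a motif goes with a member's level or change was not tested. RefSeq's promoter table (GRCm38.p6) held 40 of the 46 members, and the 250 bases before each start were searched on both strands. The NRF1 motif, bound by a regulator of many respiratory genes, was searched as the letters in capitals below with any base at the sixth. It was found in 7 of the 40 members (17.5%), against 4.23% of 27025 genes in the table. The GABP motif, ACCGGAAG, was found in 2 members (5%), against 1.95% of those genes, and no member held both. The motif of ERRA, TCAAGGTCA, and that of YY1, AAGATGGCG, were found in 0 members, against 0.422% and 0.71% of those genes. A match is a run of letters only and no measurement of binding. The stretches below leave out annotated exons and run 5′ to 3′, with the NRF1 match in capitals. Ndufa3 (chr7:3617123-3617372, plus strand) and Ndufc1 (chr3:51408989-51409205, minus strand) held none of the 4 motifs. Ndufb4 (chr16:37654454-37654618, minus strand) and Ndufs5 (chr4:123718203-123718436, minus strand) each held the NRF1 motif in the stretch shown. Ndufb4 held 3 NRF1 matches in the 250 bases searched, and only 1 of them lies in its stretch.
Ndufa3: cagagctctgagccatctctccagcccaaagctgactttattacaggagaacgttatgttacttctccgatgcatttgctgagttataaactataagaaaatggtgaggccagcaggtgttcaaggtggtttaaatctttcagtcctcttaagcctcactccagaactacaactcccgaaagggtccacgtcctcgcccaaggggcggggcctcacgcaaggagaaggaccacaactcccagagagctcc
Ndufc1: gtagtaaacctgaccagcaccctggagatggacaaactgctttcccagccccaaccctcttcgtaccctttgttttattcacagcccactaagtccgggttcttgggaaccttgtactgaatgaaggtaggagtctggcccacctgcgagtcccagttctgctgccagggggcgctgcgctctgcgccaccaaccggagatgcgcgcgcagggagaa
Ndufb4: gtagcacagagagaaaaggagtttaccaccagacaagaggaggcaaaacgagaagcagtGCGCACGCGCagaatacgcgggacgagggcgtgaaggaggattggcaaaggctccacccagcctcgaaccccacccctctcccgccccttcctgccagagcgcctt
Ndufs5: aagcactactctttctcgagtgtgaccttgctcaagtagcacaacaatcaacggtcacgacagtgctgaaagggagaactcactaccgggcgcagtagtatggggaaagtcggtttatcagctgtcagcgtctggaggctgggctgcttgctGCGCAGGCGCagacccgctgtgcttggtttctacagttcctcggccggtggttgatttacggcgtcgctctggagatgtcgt

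The libraries held 29929161 to 46101244 reads assigned to genes, and the lowest count of any member in any library was 433. Values are normalised reads, meaning the reads of a gene over a per-library size factor that was set separately in each table. A difference is in log2(normalised reads + 4), with its SE. It is called where limma's adjusted p, taken over all genes tested, was under 0.05. The 8 cardiomyocyte markers were present in every library, at a summed 2710920 to 3413520 normalised reads. A pair of control TAC libraries stood apart in liver markers or in RNA polymerase III transcripts. Control TAC replicate 3 held 566 normalised reads of the liver marker Ttr, against 0.818 to 27.8 in the other 11 libraries. The other 5 liver markers, Alb among them, were each at 0 in at least 1 library. For TAC on the control diet all 5 liver markers tested had differences above 0 (median 2.11). For BCAA-free against control diet in TAC hearts all 6 were below 0 (median -1.89). Limma called 0 of them in either comparison. Control TAC replicate 2 held 4461 normalised reads of Rn7sk, Rmrp and Rpph1, which are transcribed by RNA polymerase III, against 54.8 to 983 in the other 11. Results on control TAC hearts are therefore given with and without these replicates. BCAA-free TAC libraries differed in other markers. Summed erythroid markers were 9146 normalised reads in BCAA-free TAC replicate 1, against 14467 to 25719 in the other 11 libraries. Summed adipocyte markers were 893 in BCAA-free TAC replicate 2, against 99.3 to 526 in the other 11.

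On a scale shared by the 12 libraries and per kilobase of transcript, Ndufa4 had the highest level, a mean of 42052 ± 5874 normalised reads per kb (SD over 12 libraries). The 36 complex I subunits ranged from 3640 for Ndufs4, an accessory subunit of the peripheral arm, to 29202 for Ndufb9, an accessory subunit of the distal membrane arm. The subunits next in order after Ndufb9 were Ndufb10, at 27941 ± 2223, and Ndufb8, at 27733 ± 2292, and these 3 were closer to each other than their SDs. The highest level was that of Ndufs7 among core subunits of the peripheral arm, at 24773 ± 2120. Ndufs7 is an iron-sulfur protein beside the ubiquinone site. It was that of Ndufs6 among accessory subunits of this arm, at 21858 ± 2737. Ndufa3 led the proximal membrane arm, at 20603 ± 3913, and Ndufab1, the mitochondrial acyl carrier protein, had 10862 ± 1528. Assembly factors lay far lower, at 501 for Ndufaf6 to 1128 ± 70.7 for Ndufaf2, and the median subunit stood 18.7 times above the median assembly factor. Ndufaf2 did not exceed 1260 normalised reads per kb in any library, and Ndufs4 did not fall below 3247. Ndufa4l2, a paralog of Ndufa4 that low oxygen induces, had 670 ± 65.5, so that Ndufa4 was 62.8 times higher. These levels rest on the length of 1 annotated transcript per gene.

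**Figure D1:**
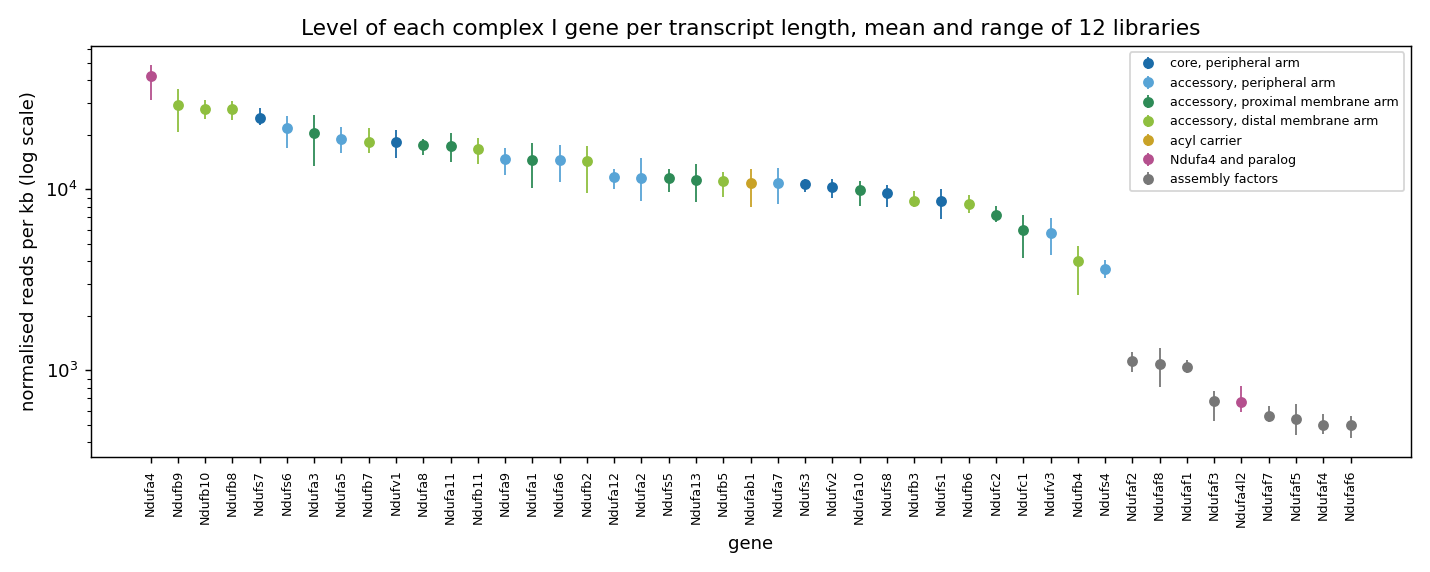
Level of 45 of the 46 genes as normalised reads per kb of transcript on a log axis, with points for the mean of 12 libraries, bars for the lowest and highest library, and colours for the role. Ndufa4 stands highest at 42052, the subunits shown lie between 3640 and 29202, and the 8 assembly factors lie between 501 and 1128.

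The members also differed in how far they varied over the 12 libraries. Ndufa3 varied most, by 1.90-fold between its highest and lowest library, followed by Ndufb4 at 1.86-fold and Ndufb2 at 1.82-fold. These are small accessory proteins of the membrane arm. Ndufs3, a core subunit, and Ndufaf1, an assembly factor, varied least, by 1.18-fold each.

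The first comparison asked what pressure overload did to these genes on the control diet. Of the 46 genes, 4 fell after TAC and 0 rose, while 1.94% of the 15873 genes tested fell and 3.4% rose, 5.34% called in all. All 4 are accessory subunits, as are most members. By the roles above, 3 are in the membrane arm and the other is the acyl carrier subunit Ndufab1, which was placed in no arm. The other 42 members missed the threshold, and 41 of the 46 differences were below 0, against 49.8% of all genes. Their median was -0.16, against 0.00 over all genes tested. In whole hearts, fewer cells that express a gene and less of its RNA per cell cannot be told apart.

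Ndufa3, an accessory subunit at the base of the membrane arm (ENSMUSG00000035674, chromosome 7, 3617373 to 3620327 on GRCm38), had 6749, 8163 and 8135 normalised reads in control TAC hearts, against 11905, 9646 and 11559.9 in control sham hearts. The groups did not overlap, and Ndufa3 fell by 30.4% (log2 difference -0.52 ± 0.10, adjusted p = 0.0216). Ndufa1, a small membrane protein of the same region (ENSMUSG00000016427, chromosome X, 37187588 to 37191163), had 4128, 4993 and 4705 normalised reads in control TAC hearts, against 6428, 5457 and 6549.9 in control sham hearts. Its lowest library was control TAC replicate 1 and its groups did not overlap, and it fell by 25% (log2 difference -0.41 ± 0.09, adjusted p = 0.035). Ndufab1, which also carries fatty acyl chains in mitochondrial lipid synthesis (ENSMUSG00000030869, chromosome 7, 122085403 to 122101886), had 10895, 12576 and 13038 normalised reads in control TAC hearts, against 17845, 14404 and 16940.2 in control sham hearts. Every control TAC library lay below every control sham library, and Ndufab1 fell by 25.7% (log2 difference -0.43 ± 0.10, adjusted p = 0.0363). Ndufb9, of the distal membrane arm (ENSMUSG00000022354, chromosome 15, 58933756 to 58939488), had 14082, 16063 and 17166 normalised reads in control TAC hearts, against 22976, 18503 and 21919.6 in control sham hearts. It was again lowest in control TAC replicate 1 with no overlap of the groups, and it fell by 25.3% (log2 difference -0.42 ± 0.10, adjusted p = 0.0428).

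These 4 calls were sensitive to the choice of libraries. The count was 0 without control sham replicate 1, 11 without replicate 2 and 0 without replicate 3, and it was 1, 1 and 3 with control TAC replicates 1, 2 and 3 removed in turn. Without control TAC replicates 2 and 3 together the median was -0.26, with the remaining control TAC library assumed to vary like the others. That library, replicate 1, had the smallest share of reads on the members of all 12 libraries, 1.21%. A larger fall in that fit follows from which library was left. In that fit Ndufa3 differed by -0.70, Ndufa1 by -0.57, Ndufab1 by -0.58 and Ndufb9 by -0.58. Control sham replicate 2 was the sham library with the least of each of these 4 genes. DESeq2 on the recovered reads called 14 members, all lower, against 9.73% of all genes in either direction. edgeR called 3, all lower, against 4.61%.

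By role, the difference after TAC on the control diet was below 0 in 6 of 7 core subunits of the peripheral arm (median -0.16), in 9 of 9 accessory subunits of that arm (median -0.24) and in 9 of 9 of the proximal membrane arm (median -0.16). It was below 0 in 9 of 10 of the distal membrane arm (median -0.13) and in 6 of 8 assembly factors (median -0.05). The groups did not overlap in 16 members, all lower in control TAC hearts, while 13.6% of all genes were apart in that direction. The core subunit nearest the threshold was Ndufs1, the large iron-sulfur protein of the NADH-oxidising end, which had 17277, 18903 and 19080.3 normalised reads in control TAC hearts, against 23606, 20904 and 23626 in control sham hearts. No control TAC library reached the lowest control sham library for Ndufs1, whose difference was -0.30 ± 0.07 (adjusted p = 0.0502). Ndufa4 had 18453, 20582 and 21330.3 normalised reads in control TAC hearts, against 27896, 22536 and 27733 in control sham hearts. Its groups were also apart, with a difference of -0.37 ± 0.10 (adjusted p = 0.0591). Ndufaf8, the assembly factor that in human cells partners NDUFAF5, had 611, 625 and 699.7 normalised reads in control TAC hearts, against 910.2, 738 and 813 in control sham hearts. These did not overlap either, and the difference was -0.34 ± 0.10 (adjusted p = 0.0788). The largest difference above 0 was that of Ndufa4l2, with 685, 530.3 and 735 in control TAC hearts, against 577, 616 and 568 in control sham hearts. Control TAC replicate 2 was below all 3 sham libraries and the other two above them, and the difference was 0.13 ± 0.12 (adjusted p = 0.567).

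TAC on the BCAA-free diet called none of the 46 genes with limma, edgeR or DESeq2, while limma called 4.32% of 15936 genes, edgeR 4.19% and DESeq2 7.27%. At an unadjusted p under 0.05 there were 2 members, Ndufa11 and Ndufb7, against 21.4% of all genes. The median difference was 0.07, against 0.00 over all genes, and 36 of the 46 differences were above 0, against 49.4%. The highest difference was that of Ndufa11, an accessory subunit of the proximal membrane arm, which had 10940.0, 11566 and 10852 normalised reads in BCAA-free TAC hearts, against 10419, 7944 and 9596 in BCAA-free sham hearts. All 3 BCAA-free TAC libraries lay above the sham libraries, with a difference of 0.26 ± 0.09 (adjusted p = 0.134). Ndufb7, of the distal membrane arm, differed by 0.22 ± 0.09 (adjusted p = 0.176) with groups that overlapped. The lowest value was that of Ndufaf4, an assembly factor of the early peripheral arm, which had 1891, 1666 and 1786 normalised reads in BCAA-free TAC hearts, against 2047, 1811 and 2144 in BCAA-free sham hearts. Its groups overlapped and the difference was -0.17 ± 0.08 (adjusted p = 0.278). Groups did not overlap in 3 members with higher values, against 14% of all genes, and in 1 with lower values, against 12.7%. That 1 gene was Ndufs1, at -0.15 ± 0.07 (adjusted p = 0.249). The 4 genes that fell after TAC on the control diet had differences of 0.01 ± 0.12 for Ndufa3, 0.08 ± 0.13 for Ndufa1, -0.03 ± 0.09 for Ndufab1 and 0.07 ± 0.10 for Ndufb9 here. The median depended on BCAA-free sham replicate 2, without which it was -0.02, and no member was called when any library was left out.

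The diet without branched-chain amino acids made no called difference to the 46 genes in sham hearts. Limma, edgeR and DESeq2 each called 0 members, against 2.81%, 2.98% and 5.3% of 15596 genes. At an unadjusted p under 0.05 limma had 1 member, Ndufv1, the flavin-binding subunit that takes electrons from NADH, at 0.14 ± 0.06 (adjusted p = 0.231), against 18.3% of all genes. The median difference was 0.00 and 23 of 46 were above 0, against 50.5% of all genes. The highest difference was that of Ndufa2, an accessory subunit of the NADH-oxidising end, which had 7325, 5532 and 6659.7 normalised reads in BCAA-free sham hearts, against 6153, 4933 and 6502 in control sham hearts. The lowest was that of Ndufaf1, an assembly factor of the membrane arm, which had 1363, 1300.3 and 1316 normalised reads in BCAA-free sham hearts, against 1527, 1362 and 1522 in control sham hearts. Both pairs of groups overlapped. The difference of Ndufa2 was 0.15 ± 0.11 (adjusted p = 0.527), and that of Ndufaf1 was -0.15 ± 0.07 (adjusted p = 0.285). BCAA-free sham replicate 2 was the lowest BCAA-free sham library for both of these genes. Leaving out any library still called 0 members, with medians of -0.06 to 0.08.

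In hearts under pressure overload the diet comparison called 8 members, all higher in BCAA-free TAC hearts. Over all 16222 genes, 1.27% rose and 2.11% fell, 3.38% called in all. The 8 were Ndufa2 and Ndufa7 of the peripheral arm, Ndufc1, Ndufa3 and Ndufa11 of the proximal membrane arm, Ndufb5 of the distal membrane arm, Ndufa4, and the assembly factor Ndufaf8. No core subunit passed. The median difference was 0.22, against 0.00 over all genes, and 42 of the 46 were above 0, against 50.7% of all genes. Groups did not overlap in 24 members, all higher, against 12.6% of all genes. At an unadjusted p under 0.05 there were 26 members, against 19.9%.

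Ndufc1, a small accessory subunit of the proximal membrane arm (ENSMUSG00000037152, chromosome 3, 51404677 to 51408988), had 8519, 9803 and 9548 normalised reads in BCAA-free TAC hearts, against 5598, 6358 and 7066 in control TAC hearts. Every BCAA-free TAC library exceeded every control TAC library, and Ndufc1 rose by 46.9% (log2 difference 0.55 ± 0.10, adjusted p = 0.0178). Ndufa3 had 10555, 14457 and 12785 normalised reads in BCAA-free TAC hearts, against 7505, 9164 and 9112 in control TAC hearts. These groups were apart as well, with BCAA-free TAC replicate 1 the lowest of its group, and Ndufa3 rose by 46% (log2 difference 0.55 ± 0.12, adjusted p = 0.0499). Ndufa11 (ENSMUSG00000002379, chromosome 17, 56717767 to 56722141) had 11409, 12196 and 11403 normalised reads in BCAA-free TAC hearts, against 8787, 9488 and 9833 in control TAC hearts. Its libraries were close within each diet and apart between them, and it rose by 24.6% (log2 difference 0.32 ± 0.07, adjusted p = 0.0478).

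In the peripheral arm, Ndufa2 (ENSMUSG00000014294, chromosome 18, 36742332 to 36744557) had 7345, 9344 and 8643 normalised reads in BCAA-free TAC hearts, against 5309, 5994 and 5937 in control TAC hearts. The groups were apart, and Ndufa2 rose by 46.4% (log2 difference 0.55 ± 0.10, adjusted p = 0.0189). Ndufa7, another accessory subunit of this arm (ENSMUSG00000041881, chromosome 17, 33824572 to 33838317), had 6540.0, 7593 and 7487 normalised reads in BCAA-free TAC hearts, against 4736, 5291 and 5621 in control TAC hearts. It was highest in BCAA-free TAC replicate 2 and lowest in control TAC replicate 1, with no overlap, and it rose by 38.2% (log2 difference 0.47 ± 0.09, adjusted p = 0.0252). In the distal membrane arm, Ndufb5 (ENSMUSG00000027673, chromosome 3, 32736990 to 32751566) had 13669.6, 14763 and 14515 normalised reads in BCAA-free TAC hearts, against 10610.0, 11387 and 12078 in control TAC hearts. These did not overlap and Ndufb5 rose by 26.1% (log2 difference 0.33 ± 0.07, adjusted p = 0.0455).

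Ndufa4 (ENSMUSG00000029632, chromosome 6, 11900292 to 11907497) had 27477, 32517 and 30404 normalised reads in BCAA-free TAC hearts, against 20520.0, 23106 and 23892 in control TAC hearts. The groups were apart and Ndufa4 rose by 33.8% (log2 difference 0.42 ± 0.09, adjusted p = 0.0455). Ndufa4l2 had 709.5, 678 and 676 in BCAA-free TAC hearts, against 762, 595 and 823 in control TAC hearts, where replicate 2 was lower than all 3 BCAA-free TAC libraries and replicates 1 and 3 were higher, and its difference was -0.07 ± 0.12 (adjusted p = 0.806). Ndufaf8 (ENSMUSG00000078572, chromosome 11, 120098928 to 120100705) had 944, 1129.8 and 1065 normalised reads in BCAA-free TAC hearts, against 679.9, 701 and 784 in control TAC hearts. Every BCAA-free TAC library was above every control TAC library, and Ndufaf8 rose by 44.6% (log2 difference 0.53 ± 0.10, adjusted p = 0.022). The lowest difference was that of Ndufaf7, an assembly factor with methyltransferase activity, which had 1044, 988 and 1082 normalised reads in BCAA-free TAC hearts, against 1075, 1123 and 1100.0 in control TAC hearts. The groups overlapped and the difference was -0.08 ± 0.07 (adjusted p = 0.577).

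**Figure D2:**
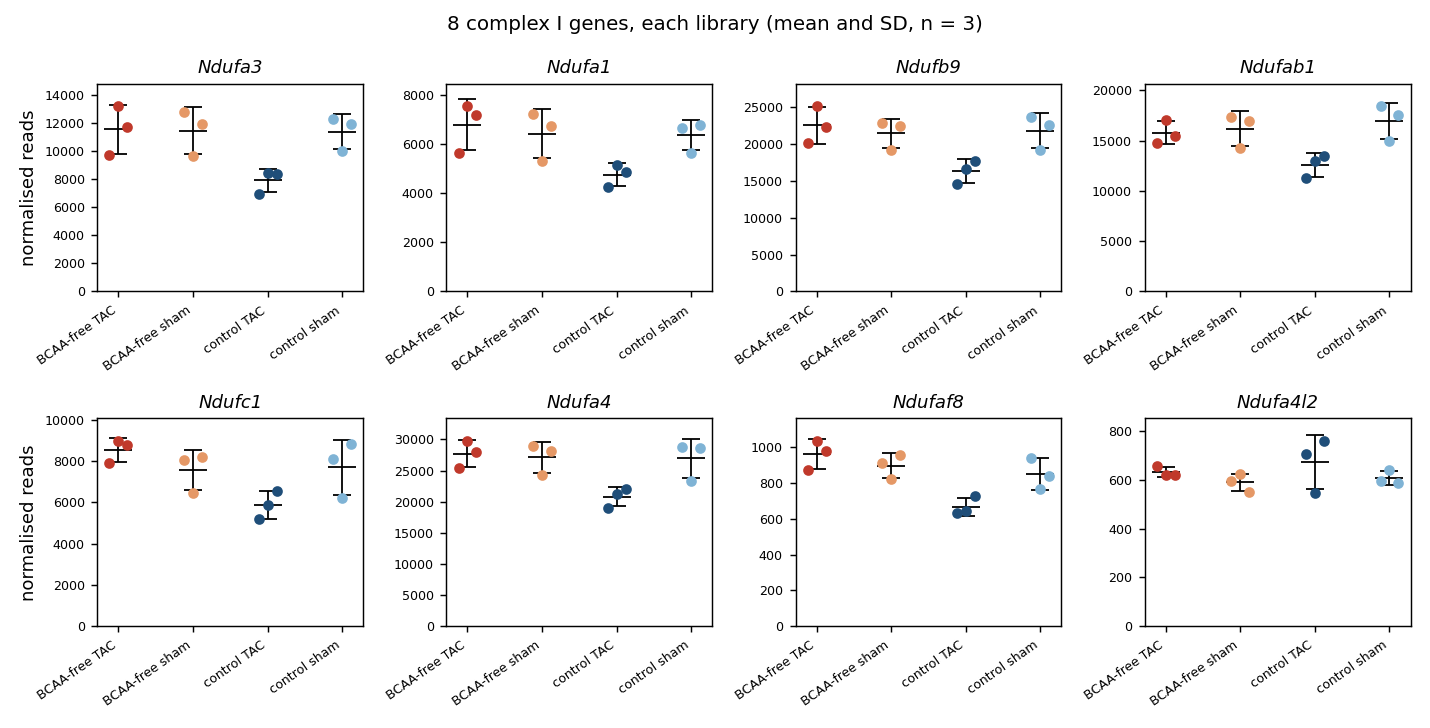
Normalised reads of 8 of the genes on a scale shared by the 12 libraries, with points for libraries, the long line for the mean and bars for the SD (n = 3 per group). Ndufa3, Ndufa1, Ndufb9, Ndufab1, Ndufc1, Ndufa4 and Ndufaf8 are lowest in control TAC hearts, and Ndufa4l2 is not.

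By role, the difference between diets in TAC hearts was above 0 in 7 of 7 core subunits of the peripheral arm (median 0.13), 9 of 9 accessory subunits of that arm (median 0.36), 9 of 9 of the proximal membrane arm (median 0.32) and 10 of 10 of the distal membrane arm (median 0.26). It was above 0 in 5 of 8 assembly factors (median 0.03). Genes next to the threshold included Ndufb9, at 0.47 ± 0.11 (adjusted p = 0.0519), and Ndufa1, at 0.51 ± 0.12 (adjusted p = 0.0582). Ndufs7 and Ndufs3, core subunits of the ubiquinone-reducing part, differed by 0.10 ± 0.11 (adjusted p = 0.665) and 0.06 ± 0.09 (adjusted p = 0.758).

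**Figure D3:**
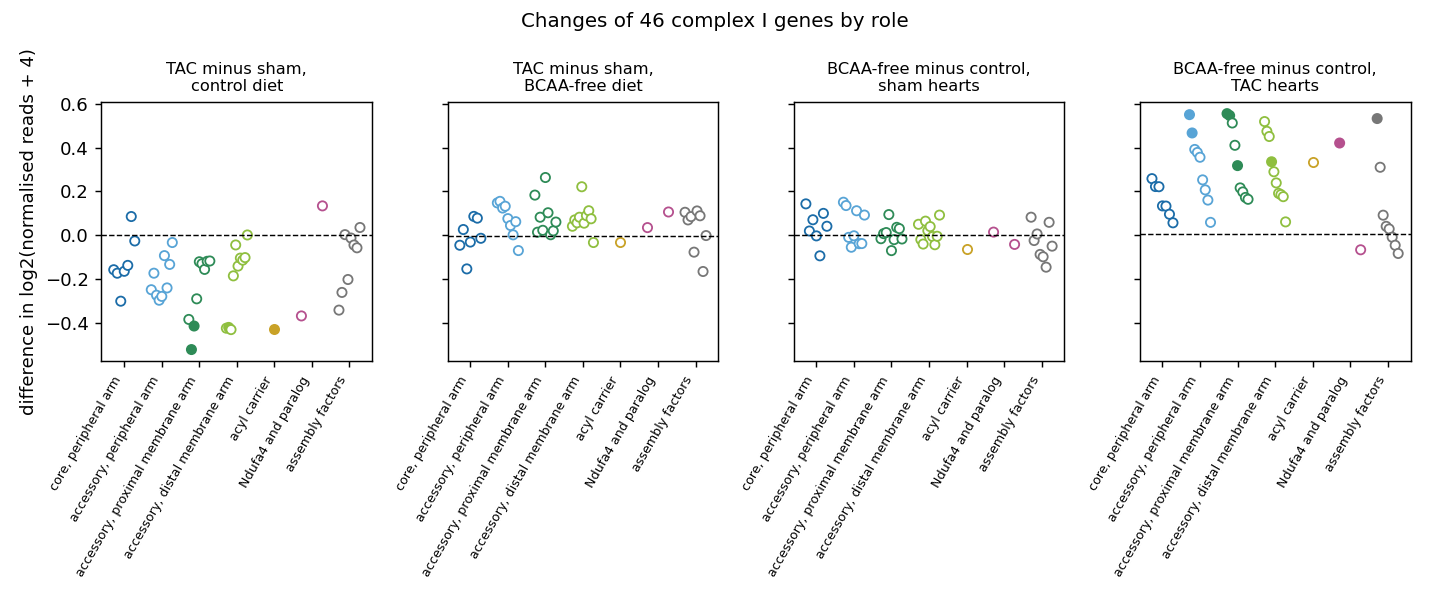
Differences in log2(normalised reads + 4) of the 46 genes by role in the 4 comparisons, with filled points for genes past the threshold. The dashed line is the median difference of all genes tested in that comparison. In TAC minus sham on the control diet 4 genes are filled and all lie below 0, and in BCAA-free minus control in TAC hearts 8 are filled and all lie above 0.

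The count of 8 moved widely with the libraries used. It was 20 without BCAA-free TAC replicate 1, 0 without replicate 2 and 0 without replicate 3. It was 1, 0 and 3 with control TAC replicates 1, 2 and 3 removed in turn. Without control TAC replicates 2 and 3 together the median was 0.35. Only replicate 1 was then left in that group, the library with the smallest share of reads on the members. DESeq2 called 18 members and edgeR 4, all higher, against 7.28% and 3.03% of all genes in either direction. All 8 had adjusted p over 0.05 without BCAA-free TAC replicate 2, and also without BCAA-free TAC replicate 3 or control TAC replicate 2.

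The TAC responses on the 2 diets were set against each other in 1 fit, which tests whether the response depended on diet. No member passed, and limma called 0.0451% of 15524 genes. edgeR and DESeq2 also called 0 members, against 0.0322% and 0.702% of all genes. The median difference of responses, BCAA-free diet minus control diet, was 0.21, against 0.00 over all genes, with 40 of 46 above 0, against 49.8%. At an unadjusted p under 0.05 there were 18 members, all above 0, against 10.1% of all genes in either direction. The highest was Ndufc1, at 0.57 ± 0.18 (adjusted p = 0.278). Ndufb9 had 0.49 ± 0.15 (adjusted p = 0.278) and Ndufaf8 0.45 ± 0.14 (adjusted p = 0.278). The lowest was Ndufaf4, at -0.11 ± 0.11 (adjusted p = 0.815). Without control TAC replicates 2 and 3 the median was 0.32, with only replicate 1 left in that group.

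Ndufa3 is the gene called in both TAC on the control diet and the diet comparison in TAC hearts. These comparisons share the 3 control TAC libraries, so a low value there enters each. In the table of TAC on the BCAA-free diet, Ndufa3 had 10121, 13709 and 12168 normalised reads in BCAA-free TAC hearts, against 13282, 9970.4 and 12395 in BCAA-free sham hearts. In the table of the diets in sham hearts it had 11899, 8915 and 11051 normalised reads in BCAA-free sham hearts, against 11357, 9228 and 11024 in control sham hearts. Both pairs of groups overlapped, with differences of 0.01 ± 0.12 (adjusted p = 0.969) for TAC on the BCAA-free diet and 0.01 ± 0.10 (adjusted p = 0.984) for the diet in sham hearts.

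Library by library, the 46 genes tended to be high or low together. On the shared scale, 41, 40 and 16 of the 46 were above their own mean over 12 libraries in BCAA-free TAC replicates 2, 3 and 1. The counts were 40, 38 and 5 in BCAA-free sham replicates 1, 3 and 2. In control TAC replicates 3, 2 and 1 they were 9, 7 and 3, and in control sham replicates 3, 1 and 2 they were 42, 39 and 5. Control sham replicate 2, BCAA-free sham replicate 2 and BCAA-free TAC replicate 1 each had far fewer such genes than the other libraries of their groups. The genes took 1.33%, 1.52% and 1.5% of all reads in BCAA-free TAC replicates 1, 2 and 3, and 1.5%, 1.33% and 1.43% in BCAA-free sham replicates 1, 2 and 3. They took 1.21%, 1.27% and 1.33% in control TAC replicates 1, 2 and 3, and 1.43%, 1.31% and 1.44% in control sham replicates 1, 2 and 3. Control TAC replicates 1 and 2 were the lowest of the 12, while replicate 3 lay level with BCAA-free TAC replicate 1 and above control sham replicate 2.

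**Figure D4:**
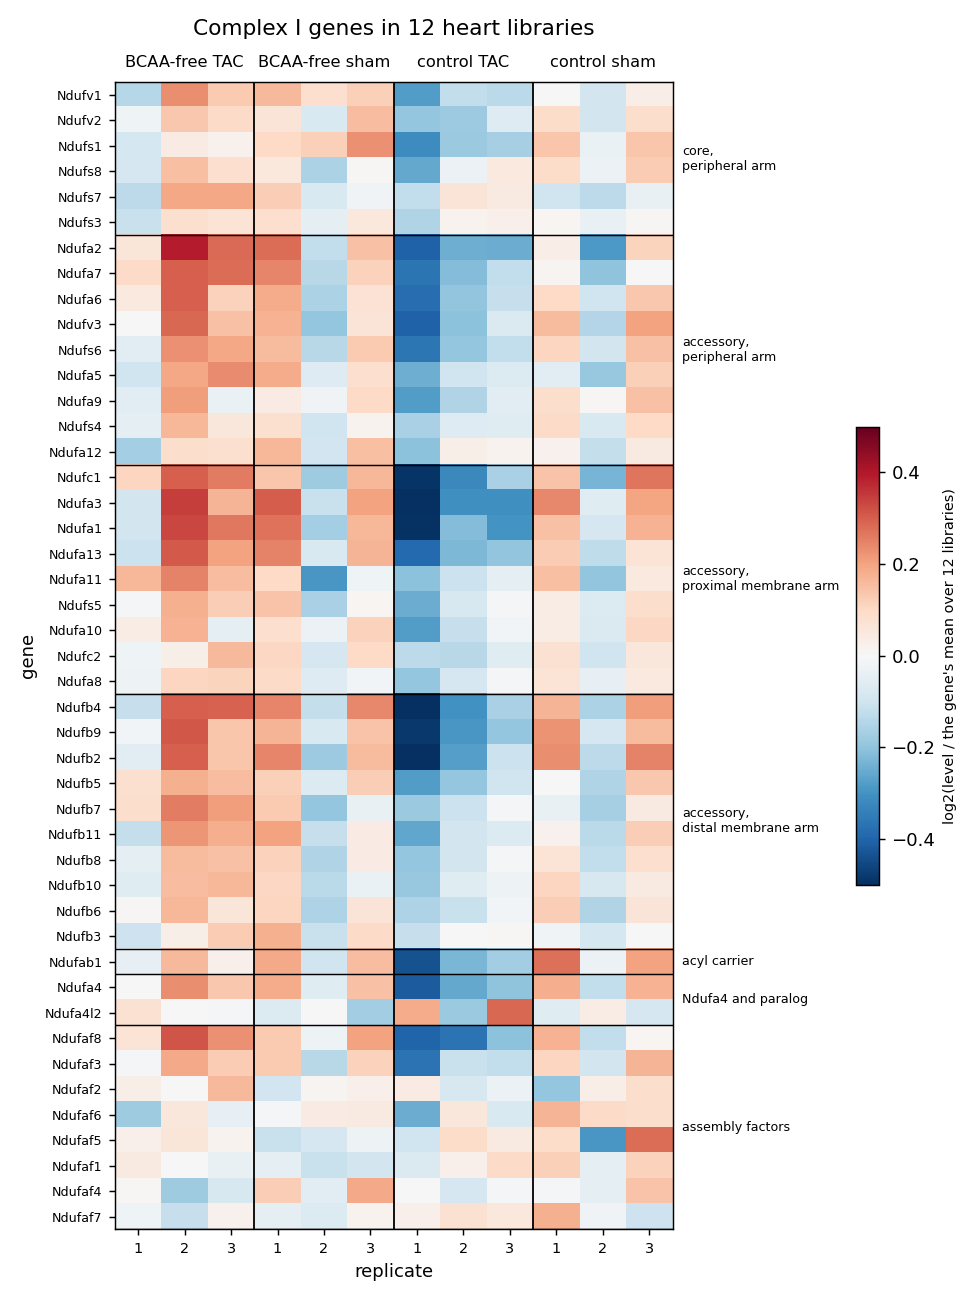
Log2 of each gene's level over its own mean of 12 libraries, for 45 of the 46 genes in rows by role and 12 libraries in columns by group. Most rows are blue in control TAC hearts, and the columns of control sham replicate 2 and BCAA-free sham replicate 2 are bluer than the rest of their groups.

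**Figure D5:**
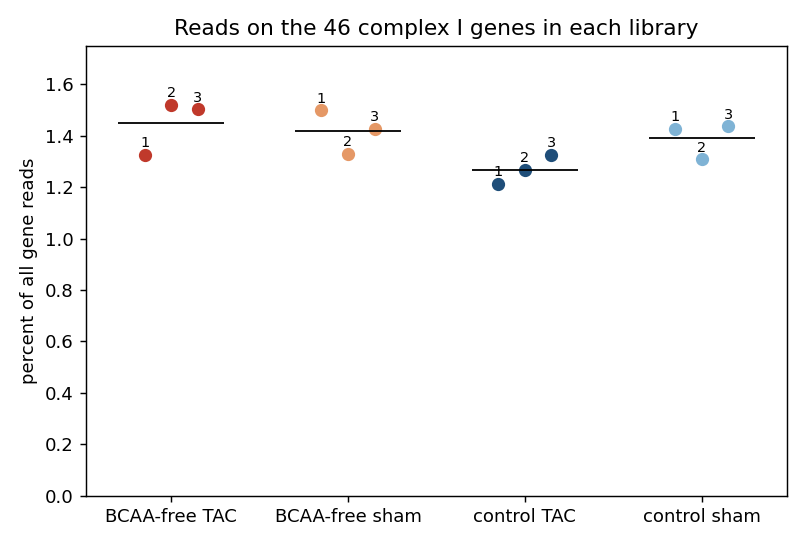
Percent of all gene reads that fell on the 46 genes in each library, with points labelled by replicate number and lines for group means. Control TAC libraries run from 1.21% to 1.33% and the other 9 libraries from 1.31% to 1.52%.

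Other measures varied with these levels. Relative to each gene's own mean, the members' median log2 level was -0.02, 0.18 and 0.13 in BCAA-free TAC replicates 1 to 3, against -0.25, -0.11 and -0.06 in control TAC replicates 1 to 3. Genes outside the list with transcripts under 1000 bases had medians of 0.05, 0.15 and 0.11 in the same BCAA-free TAC libraries, against -0.07, -0.07 and -0.05 in the control TAC libraries. Of the 46 members 26 had such short transcripts, and in the diet comparison in TAC hearts their median was 0.27, against 0.17 in 900 other short genes. The 20 longer members had a median of 0.20, against -0.01 in 13056 other longer genes. For TAC on the control diet the medians were -0.13 in short and -0.17 in longer members, against -0.03 and 0.01 in other genes of these lengths. The part of transcript length in either result was not tested.

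Cardiomyocyte markers had medians of the same signs. For the diet in TAC hearts (median 0.26) limma and edgeR called 0 of the 8 markers, DESeq2 called 4 higher, and 4 had an unadjusted p under 0.05 by limma, against 19.9% of all genes. For TAC on the control diet (median -0.14) limma called 0, and edgeR and DESeq2 each called 1 higher and 2 lower. By limma 4 of the 8 had an unadjusted p under 0.05 there, against 22.7% of all genes. Their summed level was 3059300 to 3413520 normalised reads in BCAA-free TAC hearts, against 2987180 to 3164140 in BCAA-free sham hearts. It was 2710920 to 2989290 in control TAC hearts, against 2895980 to 3076260 in control sham hearts. The members' summed level as a percent of that marker sum was 16.1, 17.0 and 17.1 in BCAA-free TAC replicates 1 to 3, and 15.4, 15.7 and 16 in control TAC replicates 1 to 3. It was 17.7, 16.5 and 17.8 in control sham replicates 1 to 3, and 18.4, 16.1 and 17.1 in BCAA-free sham replicates 1 to 3. The mean was 16.7 in BCAA-free TAC hearts and 17.2 in BCAA-free sham hearts, and the libraries of these groups overlapped. Control TAC replicate 3, the highest of its group on this ratio, was nearly level with BCAA-free TAC replicate 1. Fibroblast markers summed to 27469 to 42358 in BCAA-free TAC hearts, against 20594 to 22755 in BCAA-free sham hearts, and to 26624 to 41298 in control TAC hearts, against 22921 to 26024 in control sham hearts. Macrophage markers summed to 5884 to 7096 in BCAA-free TAC hearts, against 3613 to 4055 in BCAA-free sham hearts, and to 5520 to 7994 in control TAC hearts, against 4879 to 5467 in control sham hearts. After TAC limma called 3 of 6 fibroblast and 5 of 6 macrophage markers higher on the BCAA-free diet, against 4.32% of all genes in either direction. On the control diet it called 1 of 6 fibroblast markers higher and 1 lower, and 1 of 6 macrophage markers higher, against 5.34%. For the diet in sham hearts it called 3 of 6 fibroblast markers (median -0.34) and 2 of 6 macrophage markers (median -0.38) lower, against 2.81%. The TAC responses on the BCAA-free diet thus started from lower sham values. For the diet in TAC hearts it called 1 of 6 fibroblast markers higher and 0 macrophage markers, against 3.38%. Of 6 endothelial markers it called 1 lower there and 2 lower after TAC on the BCAA-free diet. The 3 adipocyte markers had medians of 1.07 for the diet in TAC hearts (0 called) and 1.29 in sham hearts (1 called higher). Of 4 smooth muscle and pericyte markers it called 1 higher for the diet in sham hearts. After TAC on the control diet it called 1 of these higher and 1 lower, and 1 erythroid marker lower. Within each TAC group, replicate 1 had the highest fibroblast and macrophage marker sums and the smallest share of reads on the members. The part of cell types in the members' differences was not tested.

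Other parts of the respiratory chain were read in the same fits. Among the 41 nuclear subunits of complexes II to V limma called 18 higher and 1 lower in BCAA-free TAC against control TAC hearts (median 0.37). Over all genes the shares were 1.27% higher and 2.11% lower. There edgeR called 17 higher and 0 lower, and DESeq2 24 higher and 1 lower, against 3.03% and 7.28% of all genes in either direction. For TAC on the control diet limma and edgeR each called 1 higher and 5 lower (median -0.25), and DESeq2 1 higher and 19 lower. Limma, edgeR and DESeq2 called 5.34%, 4.61% and 9.73% of all genes there in either direction. For TAC on the BCAA-free diet limma and edgeR called 0 and DESeq2 called 2 higher. DESeq2 called 7.27% of all genes there in either direction. By limma 3 of the 41 had an unadjusted p under 0.05, against 21.4% of all genes. For the diet in sham hearts and the difference of responses none of the 3 tools called any. There 0 and 23 of the 41 had an unadjusted p under 0.05 by limma, against 18.3% and 10.1% of all genes. Examples for the diet in TAC hearts were Uqcrh, the hinge protein of complex III, at 0.61 ± 0.08 (adjusted p = 0.00585), Cox8a, of complex IV, at 0.56 ± 0.08 (adjusted p = 0.00789), and Atp5k, of the ATP synthase, at 0.77 ± 0.13 (adjusted p = 0.0142). Cox6a1, the broadly expressed form of a complex IV subunit, fell, at -0.27 ± 0.06 (adjusted p = 0.0478), while Cox6a2, its heart and muscle form, rose by 0.70 ± 0.15 on the log2 scale (adjusted p = 0.0391). For TAC on the control diet Cox6a1 rose by 0.48 ± 0.06 on the log2 scale (adjusted p = 0.00455). Cox7a1, another muscle form, fell by 0.73 ± 0.14 on the log2 scale (adjusted p = 0.0204). Of the 7 complex I subunits encoded by mitochondrial DNA limma called 0 in any comparison. For TAC on the control diet edgeR called 2 and DESeq2 4 of them lower, against 4.61% and 9.73% of all genes in either direction. DESeq2 also called 1 lower for TAC on the BCAA-free diet and 1 higher for the diet in TAC hearts, against 7.27% and 7.28%. Their medians were -0.31 for TAC on the control diet, -0.11 for TAC on the BCAA-free diet, -0.01 for the diet in sham hearts and 0.17 for the diet in TAC hearts. By limma 5 of the 7 had an unadjusted p under 0.05 for TAC on the control diet, against 22.7% of all genes. For the diet in TAC hearts 2 of the 7 did, against 19.9%, and 0 did in the other comparisons. Among 10 further complex I assembly factors outside the Nduf names 0 were called by limma, edgeR or DESeq2. At an unadjusted p under 0.05 by limma there were 1 or 2 in each comparison, against 10.1% to 22.7% of all genes. The medians of these 10 were -0.12 for TAC on the control diet and 0.08 for the diet in TAC hearts. Among 8 regulators of mitochondrial biogenesis limma called 1, Esrrg, a nuclear receptor of oxidative metabolism, which fell by 0.42 ± 0.07 on the log2 scale after TAC on the BCAA-free diet (adjusted p = 0.0125). DESeq2 called 2 of the 8 lower there, and 1 lower in each of the other 3 comparisons of 2 groups. Its shares of all genes in either direction ran from 5.3% to 9.73% over these 4 comparisons. Limma called 4.32% of all genes after TAC on the BCAA-free diet.

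Several members share sequence with other genes, and whether reads were counted by strand is not given in the sources used here. By the GENCODE M21 annotation 19 of the 46 have an exon that overlaps another gene, 17 of them a gene on the other strand. For the called members the other gene was far lower. Ndufa3 had 20.7 times the mean normalised reads of Tfpt, Ndufa11 46.2 times those of Vmac, Ndufa2 40.4 times those of Tmco6 and Ndufb5 13.7 times those of Mrpl47. Ndufab1 had 329 times those of Gm44986. Ndufb9 overlaps Gm49356 on the same strand, for which no value was used here. Ndufa4l2 (0.376 times Shmt2) and Ndufaf3 (0.74 times Impdh2) lay below the gene on the other strand, and their values are uncertain. Ndufab1 has an annotated pseudogene, Ndufab1-ps, with which reads could be shared. Pseudogenes were looked for only by an Nduf symbol marked -ps, so any with other names were missed.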

How the data were processed

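RNA of 12 mouse heart samples was measured by RNA-seq of polyadenylated RNA after Trizol extraction, per the labels' protocols. The genome build GRCm38 and the tools STAR 2.5.2b, Trimmomatic 0.36, DESeq2 and Subread 1.5.2 are named per the submitters' processing notes; what each did is not given in the sources used here. The library columns of the 4 deposited tables hold a signal, gene reads over a size factor set in that table. The tables also hold the authors' log2 fold change, p-value and adjusted p-value, per the file headers, which were not used for any value given here. At a tolerance of 0.001, 100% of the values were whole reads once divided by the value of 1 read, and the reads of a gene did not differ between tables.

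Each pair of groups was tested within its table with limma 3.58.1 in R 4.3.3, with a trend, on log2(normalised reads + 4), keeping genes whose mean reached 10. That scale understates changes of low genes. The Benjamini-Hochberg adjustment ran over every gene tested and the threshold was 0.05. The difference of TAC responses used the 12 columns of both TAC tables. On the recovered reads edgeR 4.0.16 called 731, 668, 464, 492 and 5 genes and DESeq2 1.42.0 called 1544, 1159, 826, 1181 and 109 for TAC against sham on the control diet, TAC against sham without BCAA, the diets in sham hearts, the diets in TAC hearts and the difference of responses. Levels per kb used 1 size factor per library over all 12 libraries and the shortest of the best-supported principal transcripts in GENCODE M21. Reads without molecular identifiers are not independent molecules. The fits were also run on simulated counts drawn independently for each gene. Such counts lack the shared rise and fall of members by library, so they cannot test the calls against it.

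The members, gene lists, motifs and tests were chosen with earlier results of these data known. Members named with values are those past the threshold, the highest and lowest difference in each comparison, the highest level in each role, and Ndufa4 and Ndufa4l2. Other members, such as Ndufs1, Ndufv1 and Ndufb7, and Cox6a1 and Cox6a2 for the diet in TAC hearts were named after their values were seen. The values of 1 member are not reported here by themselves, though it is in the counts and medians. From each other list at most 4 called genes with the smallest p were named. Pseudocounts of 1 and 16, no filter, a mean of at least 50, quantile normalization, 1 fit over all libraries, a replicate block, edgeR, DESeq2 and leaving out libraries were tried.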

Additional observations from a re-analysis of the deposited data

How the results depend on the processing

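No called gene changed sign under the alternatives run, nor did the medians of the 2 comparisons with calls. Of the alternative values of named genes, 282 kept their side of the threshold, 74 no longer passed and 4 passed newly. All 74 belong to the called genes, while the 282 also include named genes that were not called. Among called genes the share that lost the call was therefore larger than these counts show. The number of members called for TAC on the control diet, 4, was 0 to 11 with libraries left out in turn, 2 with the replicate block and 14 with DESeq2, and without control TAC replicates 2 and 3 together the median was -0.26. The number for the diet in TAC hearts, 8, was 0 to 20 with libraries left out in turn. It was 4 with quantile normalization, 4 with edgeR and 18 with DESeq2. In 1 fit over all libraries it was 13, and with the replicate block 19. Without control TAC replicates 2 and 3 together the median was 0.35, with 1 library left in that group. The cause was not tested. The other 3 comparisons called 0 members under every alternative run. Replicate numbers did not pair the libraries: deviations from group means of same-numbered libraries correlated at -0.09 to 0.26, and 2, 2, 3 and 2 of 6 libraries correlated best with their own number in the 4 comparisons. Every member had at least 433 reads per library, and with 3 libraries per group the adjusted p followed the spread between them.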
